A study of Mus musculus with 2 samples.

Results

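Chloride channels and cation-chloride cotransporters were followed in dorsal root ganglion (DRG) neurons through 9 genes: the cotransporters Slc12a2, Slc12a5 and Slc12a7, the anoctamins Ano1, Ano3 and Ano6, and the CLC proteins Clcn2, Clcn3 and Clcn6. They were chosen by gene name, and every non-control probe that carried one of these names was taken, which gave 21 of 56601 probes and 9 of 37074 gene names on the array. A single Cy3 array was hybridised per genotype, both with RNA of DRG neurons from C57BL/6 mice that carry the AND T cell receptor transgene. One mouse group was Dock8+/- with a low IL-31 level and the other Dock8-/- with a high IL-31 level, and age, sex and the number of animals behind each RNA are not given in the sources used here. Both groups carry the AND transgene, so neither is a wild type. DOCK8 is an exchange factor for small GTPases that acts mainly in immune cells, and IL-31 is a T cell cytokine that causes itch by acting on sensory neurons. The comparison asks which of these transcripts differ in DRG neurons between the genotypes.

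The direction of a chloride current depends on how much chloride a cell holds. Cotransporters of the SLC12 family set that level: NKCC1, encoded by Slc12a2, carries chloride inward with sodium and potassium, whereas the KCC proteins carry it outward with potassium. DRG neurons are known for high internal chloride, so that GABA and calcium-activated chloride channels depolarise them. Anoctamins are calcium-activated channels or lipid scramblases, and CLC proteins are either chloride channels of the cell surface or chloride-proton exchangers of endosomes and lysosomes.

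Every difference below is between 1 Dock8+/- array and 1 Dock8-/- array and has no replicate check. No test between the genotypes was possible, and a 2-fold difference serves only to describe size. A difference is the log2 processed intensity on the Dock8-/- array minus that on the Dock8+/- array, each after subtraction of its array's 75th percentile, so that a positive value means higher in Dock8-/- relative to other transcripts. In bulk RNA, fewer cells of a type and less RNA per cell cannot be told apart. The 75th percentile of processed intensity was 303.8 for Dock8+/- and 145.6 for Dock8-/-, and 56.9% and 50.7% of probes, respectively, were well above background. Repeat spots of 1 array differed little, and the SD expected for a difference between single spots was 0.0690. That SD covers spot error only. Without scaling, 89.7% of the 27734 probes well above background on both arrays were dimmer in Dock8-/-. Scaling to the added spike-in RNA instead shifted all differences by -1.85 and put those of all 9 genes below 0, so the directions given here are relative to the other transcripts. Scaling to the median in place of the 75th percentile shifted the median of all genes from 0.03 to -0.20 and left the sign of all 9 genes as it was.

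The labelled cells were present: all 11 pan-neuronal markers were well above background on both arrays, with a median difference of 0.12, and so were all 11 markers of DRG sensory neurons, with a median of -0.02. Markers of other cells were also read, and the sums given here cover every gene on each list. Unlike the medians, the sums are not scaled between the arrays, and those of the pan-neuronal list were 410980 and 190515. Of the fibroblast list, 8 of 9 genes were measured on both arrays with a median of -2.62, and its summed processed intensity was 293709 in Dock8+/- and 38807 in Dock8-/-. Macrophage markers had a median of -1.55 over 9 genes, with sums of 41141 and 4953, and endothelial and mural markers one of -0.36 over 8 genes, with sums of 7963 and 2940. Skeletal muscle markers had a median of -3.68 over 5 genes, with sums of 24791 and 4350. Most of the latter was Pvalb, a gene that DRG proprioceptors also express, at 15109 and 4063 with a difference of -0.83, and without it the sums were 9682 and 287. Schwann cell markers had a median of -0.62 over 9 genes, with sums of 234382 and 99285. Satellite glia markers had a median of 0.98 over 8 genes, with sums of 168366 and 111997, and the list of spinal cord neurons and astrocytes one of 1.01 over 10 genes, with sums of 8647 and 9612. In units of each array's 75th percentile, the sums were 771 and 682 for Schwann cells and 554 and 769 for satellite glia. In the same units those of the pan-neuronal list were 1353 and 1309. The part of these cells in the values below was not tested.

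Of the 21 member probes, 16 were well above background on both arrays, 1 on the Dock8-/- array only and 4 on neither. All 9 genes had at least 1 probe well above background on both arrays and are described by the brightest of their probes, the one with the highest mean log2 signal. Taken so, 4 genes were higher in Dock8-/- and 5 lower, where 51.8% of all 18664 measured genes were higher. The median difference of the 9 genes was -0.08, against 0.03 for all measured genes. Over the 16 probes the picture differed, with 11 above 0 and 5 below and a median of 0.47 against 0.09 for all probes, and with the mean of each gene's probes the median of the 9 genes was 0.23. At the 2-fold size, 0 of 9 genes were higher, where 9.08% of all genes were, and 1 was lower, where 7.02% of all genes were. By probe, 1 of 16 was higher by that size, where 11.8% of all probes were, and 1 of 16 lower, where 7.06% of all probes were. These shares are near the background. Over all genes the counts were 1695 higher and 1310 lower, but 1000 and 2125 with scaling to the median, 1297 and 1531 with loess, 705 and 865 with normexp background correction and 58 and 16303 with spike-in scaling.

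**Figure D1:**
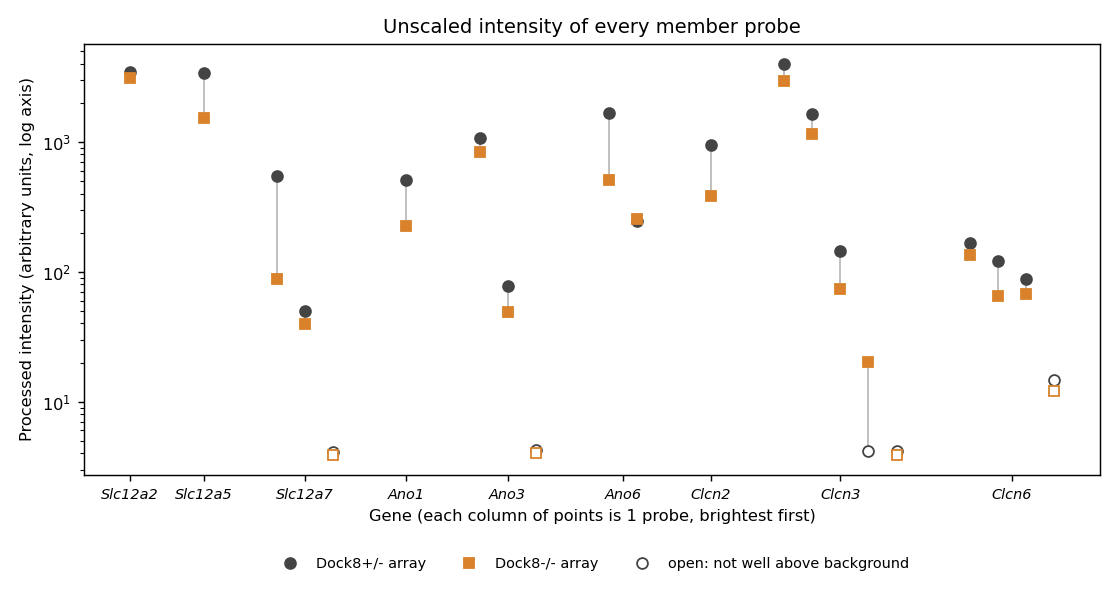
Processed intensity (arbitrary units, log axis, not scaled between arrays) of each of the 21 member probes, 1 column of points per probe and brightest first within a gene, on the Dock8+/- array (circles) and the Dock8-/- array (squares); open symbols were not well above background. Slc12a2 lies at nearly the same intensity on both arrays (3420 and 3116), whereas Slc12a5 lies at 3375 and 1527, and of the 16 probes read on both arrays only the second Ano6 probe is brighter on the Dock8-/- array.

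Slc12a2, the gene of the chloride importer NKCC1, had the highest difference of the 9 genes by their brightest probes. Its single probe, on chromosome 18, read 3420 in Dock8+/- and 3116 in Dock8-/-, close to each other although most probes were dimmer in the latter. After scaling, its log2 signal was 3.49 and 4.42, a difference of 0.93, or 1.90-fold higher in Dock8-/-. That lies just under the 2-fold size, and 89.4% of measured genes had a lower difference. The value was 0.70 with scaling to the median, 0.69 with normexp background correction and 0.99 with quantile normalisation, and on the spike-in scale the direction turned, to -0.92.

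Slc12a5 encodes KCC2, the chloride exporter known mainly from central neurons. Its single probe, at chr2:164825109-164825168 of mm9 in transcript NM_020333, read 3375 in Dock8+/- and 1527 in Dock8-/-. The scaled log2 signals were 3.47 and 3.39, and their difference of -0.08 was 1.20 times the spot SD. Relative to each other the probes of the importer and the exporter differed between the arrays: the difference of Slc12a2 exceeded that of Slc12a5 by 1.01, or 2.01-fold, with a spot SD of 0.0976. A scaling by a constant shifts both differences alike, and a filter or probe averaging leaves a gene with 1 probe as it is, so these could not change the gap. Under the 4 of 12 alternatives that could, namely quantile, loess, normexp and the authors' value table, it lay between 0.99 and 1.02. Such corrections follow intensity, and the 2 probes read 3420 and 3375 in Dock8+/- and 3116 and 1527 in Dock8-/-. All of them reuse the same 2 arrays, so the narrow range is no check of the gap. The gap was chosen after the values had been seen, rests on 1 probe per gene and 1 array per genotype, and says only that the 2 probes changed unequally.

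Slc12a7, which encodes the exporter KCC4 of many tissues, was the 1 gene past the 2-fold size by its brightest probe. Its brightest probe read 550 in Dock8+/- and 88.7 in Dock8-/-, and the scaled log2 signals of 0.85 and -0.71 gave a difference of -1.57, or 2.97-fold lower in Dock8-/-. Only 2.36% of measured genes had a lower difference. The second probe read 49.8 and 39.6, and its difference was 0.73, in the other direction. Another probe, for the cDNA AK052910, was not well above background in either genotype, with intensities of 4.07 and 3.86. The files assign the bright and the dim probe to the same RefSeq transcript, NM_011390, on the plus strand of chromosome 13 of mm9, with starts 7276 bases apart. Their first 30 of 60 bases are shown because these probes of 1 transcript disagreed, and nothing is marked by capitals:
Slc12a7, bright probe, chr13:73953745-73953804: ctgtccacattcacgacgttccagttaggg
Slc12a7, dim probe, chr13:73946469-73946528: acgctaatgatggagcagaggtcacagatg

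The gap of 2.30 between the Slc12a7 probes was wide for this array. Among the 4233 genes with 2 probes well above background on both arrays, the median gap was 0.51 and 1.39% had one at least as wide. Brightness moved with the differences as well. Of probes well above background on both arrays, those with a geometric mean intensity below 100 had a median difference of 0.41, and probes well above background on neither array one of 0.97. Probes from 100 to 300, from 300 to 1000 and above 1000 had medians of 0.06, -0.03 and -0.05. The dim Slc12a7 probe lies in the first of these classes, and the bright one in the second. The part of brightness in this gap was not tested. With the mean of both probes the difference of Slc12a7 was -0.42, no longer past the 2-fold size, and with normexp it was -1.18. Fibroblast and macrophage markers were lower beside the bright probe, 7 of 8 and 7 of 9 measured genes by at least 2-fold, where 7.02% of all genes were. The dim probe, at 0.73, went the other way. The part of these cells in either probe was not tested.

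**Figure D2:**
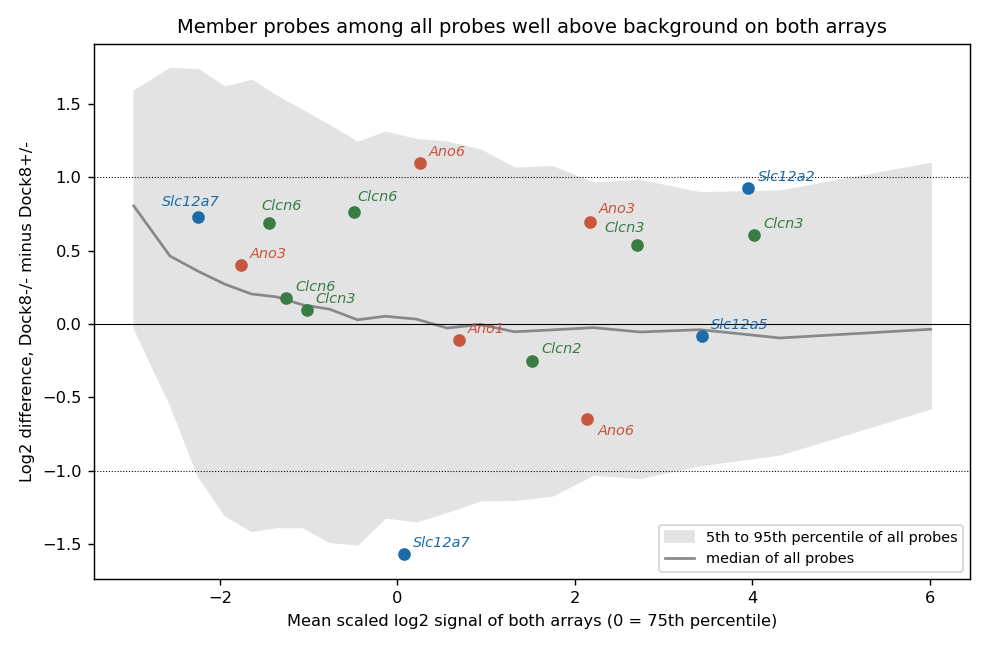
Log2 difference (Dock8-/- minus Dock8+/-) against the mean scaled log2 signal of both arrays for the 16 member probes well above background on both, coloured by family (blue SLC12, red anoctamin, green CLC), over the median (line) of all 27734 such probes and a band that leaves out their lowest and highest 5%; dotted lines mark 2-fold. The bright Slc12a7 probe at -1.57 lies below the band and Slc12a2 at 0.93 at its upper edge, while the line rises toward dim probes.

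By their brightest probes, Slc12a4, Slc12a8 and Slc12a9 differed less than Slc12a2 and Slc12a7 but more than Slc12a5. Slc12a4, encoding KCC1, read 2388 and 878, a difference of -0.38. Slc12a8 and Slc12a9 were at 0.29 and 0.35. Slc12a1 and Slc12a3, the cotransporters of the kidney tubule, were not well above background in either genotype. Of 7 measured family members, 3 were above 0 and 4 below, with a median of -0.08, where 51.8% of all genes were above 0.

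Ano1 encodes TMEM16A, the calcium-activated chloride channel of nociceptors. Its single probe, at chr7:151774604-151774663 of mm9 in transcript NM_178642, read 509 in Dock8+/- and 226 in Dock8-/-. The difference of -0.11 was 1.57 times the spot SD, and 41.0% of measured genes had a lower one. The difference of Ano1 was thus near the middle of those of all genes.

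Ano3 encodes TMEM16C, which in nociceptors is known to raise the activity of a sodium-activated potassium channel. Its brightest probe, at chr2:110495967-110496026, read 1074 and 831, and the difference was 0.69, or 1.62-fold higher in Dock8-/-. Another probe, for the predicted transcript XM_006499262, with a start 57465 bases away, read 77.8 and 49.2, a difference of 0.40. Both probes were above 0, and a gap of 0.29 or more was seen in 67.5% of genes with 2 such probes. The last probe, for an Ensembl transcript, was not well above background in either genotype, at 4.25 and 4.04.

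Ano6 encodes TMEM16F, a calcium-activated scramblase that exposes phosphatidylserine and also passes ions. Its probes disagreed. The brightest read 1665 in Dock8+/- and 510 in Dock8-/- and had a difference of -0.64, or 1.56-fold lower in Dock8-/-. The other read 248 and 254 and was 2.14-fold higher after scaling, the 1 of the 16 member probes past that size upward. Both are listed for the transcripts NM_175344 and NM_001253813 and lie on the plus strand of chromosome 15 of mm9, with starts 1673 bases apart. They are shown for this contrast, as their first 30 of 60 bases with no capitals:
Ano6, bright probe, chr15:95805004-95805063: ttcctaaggacaggaaagtactcccactcc
Ano6, other probe, chr15:95803331-95803390: acctacctggaggtcctgaacatgctccct

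The GC content of these Ano6 probes was 43.3% and 41.7%, and that of the Slc12a7 pair 55.0% for the bright and 45.0% for the dim probe. Their gap of 1.74 was reached by 4.61% of the genes with 2 such probes, and their mean was 0.23. No direction can thus be given for Ano6 as a gene, nor for Slc12a7, whose gap was wider still; both count among the 5 lower genes by their brightest probes only. Probes of a gene had opposite signs in 40.1% of the 6226 genes with at least 2 probes well above background on both arrays, so a sign change alone is common here. None of the 21 member probes held 4 or more GA or GAA units in a row (0 of 21).

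Among the remaining anoctamins, Ano10 read 2895 and 1005, a difference of -0.46, and Ano8 read 208 and 53.3, a difference of -0.90. Ano4 was at 0.21. Ano9 had the highest difference of the family, 1.75, but from dim values of 27.8 and 44.7. Ano7 was well above background in Dock8+/- only, and its brightest probe read 27.9 in Dock8+/- and 15.5 in Dock8-/-. The smallest fold these dim values allow is 1.0, so no lower level in Dock8-/- can be given. Ano2 and Ano5 were not well above background in either genotype. Of 7 measured anoctamins, 3 were above 0 and 4 below, with a median of -0.11, where 51.8% of all genes were above 0. Among them 1, Ano9, was past the 2-fold size upward, where 9.08% of all genes were.

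Clcn3 encodes a chloride-proton exchanger of endosomes and synaptic vesicles. Its brightest probe, at chr8:63389279-63389338 of mm9, read 4001 in Dock8+/- and 2918 in Dock8-/-, and the difference was 0.61, or 1.52-fold higher in Dock8-/-. The next probe of the same transcript read 1640 and 1141, a difference of 0.54. The dimmest of the 3 read 145 and 74.2, a difference of 0.10. All 3 were above 0, and 78.8% of genes with 3 such probes spread at least as widely. Another, for an Ensembl transcript, read 20.1 in Dock8-/- and 4.17, not well above background, in Dock8+/-. After scaling it was at least 2.42-fold higher in Dock8-/-, a bound set by the dimmest intensity that counted as well above background in Dock8+/-, 17.4. The last, for the cDNA AK088307, was not well above background in either genotype.

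Clcn6, a chloride-proton exchanger of late endosomes found mainly in neurons, was read dimly, by 3 probes that shared a sign but not a size. The brightest, for an Ensembl transcript at chr4:147378970-147379029, read 166 and 135, and its difference was 0.76, or 1.70-fold higher in Dock8-/-. The others read 120 and 64.9, a difference of 0.18, and 87.6 and 67.6, a difference of 0.69. The last probe, at 14.8 and 12.0, was not well above background in either genotype. The brightest lies in the class of 100 to 300, where the median of all probes was 0.06, and the other measured pair below 100, where it was 0.41. With normexp the Clcn6 difference was 0.58.

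Clcn2 encodes ClC-2, a chloride channel of the cell surface that opens at negative voltage and in glia is bound by GlialCAM. Its single probe, at chr16:20703250-20703309 of mm9, read 948 and 382, and the difference was -0.25, or 1.19-fold lower in Dock8-/-. Hepacam, the GlialCAM gene, read 132 and 296 and was 4.67-fold higher, brighter in Dock8-/- even without scaling. Mlc1, whose membrane protein GlialCAM also binds, read 3674 and 2681, a difference of 0.61. Beside Hepacam, 8 of 10 genes of the spinal cord and astrocyte list were above 0, among them Gfap at 1133 and 4570, and so were 6 of 8 satellite glia markers. The part of these cells was not tested. Of the other CLC genes, Clcn4-2 was at -0.37, Clcn5 at 0.34, Clcn7 at -0.10 and the ClC-7 subunit gene Ostm1 at 0.35. Clcn1 and Bsnd were not well above background in either genotype. The CLC list had a median of 0.35 over 9 measured genes, against 0.03 for all genes. Of the 9, 6 were above 0, where 51.8% of all genes were.

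Kinases of the WNK, SPAK and OSR1 cascade switch NKCC1 on and the KCC proteins off. Of the 9 measured genes of this regulator list, 6 were above 0, with a median of 0.55, and 3 were past the 2-fold size upward and 0 downward. Of all measured genes 51.8% were above 0, 9.08% past that size upward and 7.02% downward. Oxsr1, the OSR1 gene, read 123 and 133 and differed by 1.18, and its 2 probes lay at 0.69 and 1.18. Cab39l, encoding a scaffold of these kinases, read 2497 and 2493 and differed by 1.06, with a probe as high as 1.94. Wnk4 differed by 2.07 on its brightest probe and by 0.11 on the other. By contrast Stk39, the SPAK gene, was at -0.48 and Wnk1 at -0.46, each with probes on both sides of 0, and both names were taken after their values were seen. Wnk3 was well above background in Dock8+/- only, and its brightest probe read 31.1 in Dock8+/- and 3.63 in Dock8-/-. Its bound was 1.0-fold, so no lower level in Dock8-/- can be given. Volume-regulated anion channels are built from LRRC8 proteins. Lrrc8b read 754 and 911, a difference of 1.33, and Lrrc8c 119 and 115, a difference of 1.01, whereas the median of this list of 6 genes was 0.14.

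**Figure D3:**
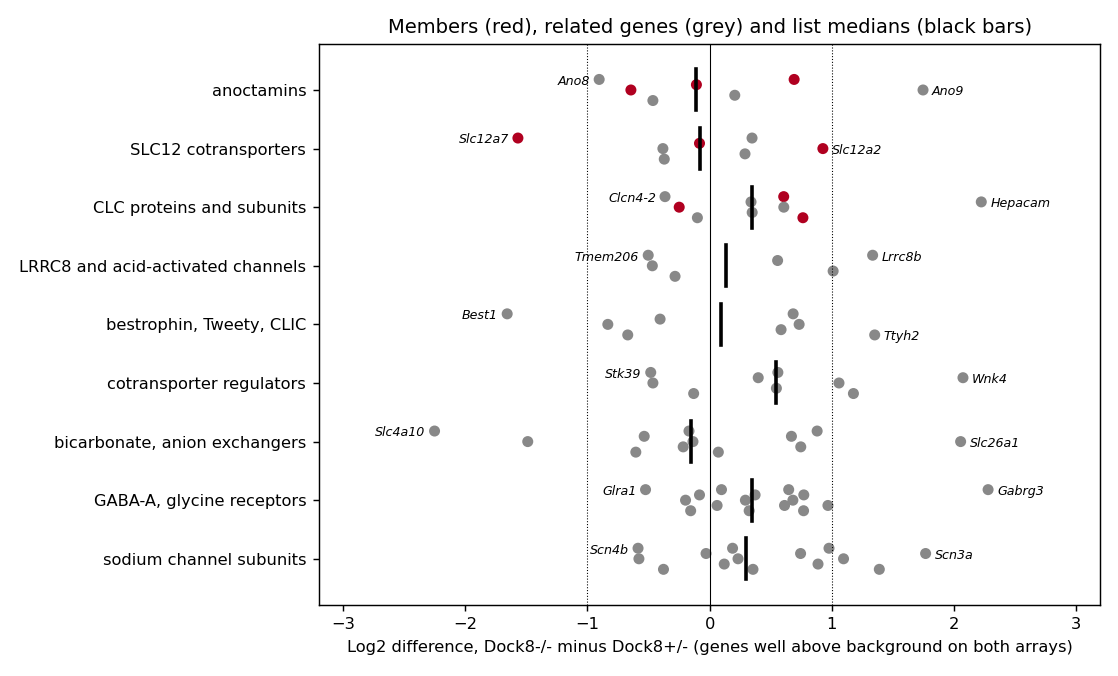
Log2 difference (Dock8-/- minus Dock8+/-) of each gene well above background on both arrays by its brightest probe, in the related lists and in the 2 comparison lists; red points are members, grey points other genes, black bars list medians, and dotted lines mark 2-fold. The SLC12 row runs from Slc12a7 at -1.57 to Slc12a2 at 0.93 around a median of -0.08, and the GABA-A and glycine receptor row has a median of 0.35.

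GABA-A and glycine receptors are the ligand-gated chloride channels whose current follows the gradient set by the SLC12 proteins. Of 24 subunit genes, 16 were measured, 12 of them above 0, with a median of 0.35, and 1 was past the 2-fold size, where 51.8% of all genes were above 0 and 9.08% past that size upward. Gabrg3 lay highest, at 2.28 from dim values of 28.3 and 65.9, and Glra1 lowest, at -0.52. Voltage-gated sodium channel subunits had a median of 0.29 over 14 genes, with 3 past the 2-fold size upward, again beside 9.08% of all genes, and 0 downward, beside 7.02%, from -0.59 for Scn4b to 1.77 for Scn3a. The 9 chloride genes had a median of -0.08 by their brightest probes but 0.23 by the mean of probes, so no difference from these lists is drawn, and none was tested.

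Scaling, normalisation and probe choice moved the values of the 9 genes as the plot of settings shows. Many of the 12 alternatives could not change a gene's value, since filters and probe averaging leave a gene with 1 probe as it is. Slc12a5, Ano1, Clcn2 and Slc12a2 took another value under 7 of them, and the first 3 of these stayed below 0. Slc12a2, Clcn6, Ano3 and Clcn3 were below 0 under spike-in scaling only. Slc12a7 was below 0 throughout, but only the mean of probes used its dim probe, which alone stood at 0.73. Ano6 was at 0.23 with the mean of its probes and below 0 where its brightest probe was used.

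**Figure D4:**
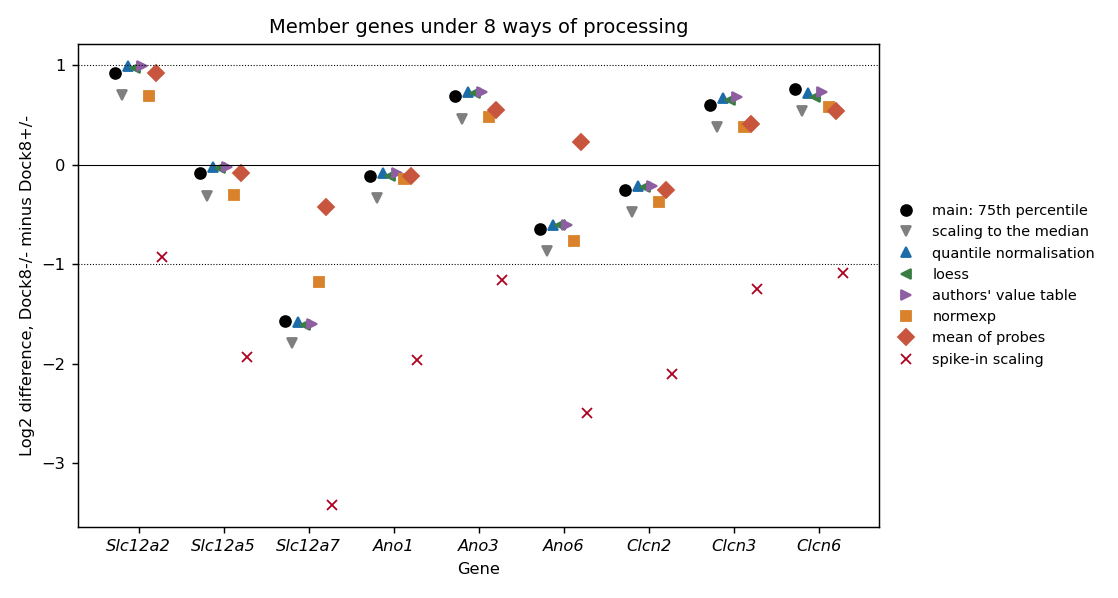
Log2 difference (Dock8-/- minus Dock8+/-) of each member gene under 8 ways of processing, 1 symbol per setting; dotted lines mark 2-fold. Spike-in scaling (crosses) puts all 9 genes below 0, with Slc12a2 at -0.92, and the mean of probes (diamonds) moves Slc12a7 to -0.42 and Ano6 to 0.23.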

How the data were processed

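The deposited scanner files, from Agilent Feature Extraction, give linear spot intensities. Its version is 10.7.1.1 per the file headers and 9.5.1.1 per the submitters' processing notes. Background was subtracted and spatial trends removed per the file headers, with a low substitute intensity for dim spots. The deposited value table holds linear intensities with 98.9% of sorted values equal in both columns (tolerance 0) and a median of 27.9 in each, so it is quantile normalised in the direction of intensity. It was used as an alternative.

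Here, spots flagged as outliers were left out (47 and 40 of 59305 on the Dock8+/- and Dock8-/- arrays), 0 non-control spots were saturated, and log2 processed intensity was averaged per probe and set against each array's 75th percentile. Genes carry the names in the files, and a gene took its probe with the highest mean. With 1 array per group, the number of arrays limits the precision and there is no p-value. Normexp (offset 50), quantile and loess (span 0.3) alternatives used limma 3.58.1 in R 4.3.3; spike-in scaling used 8 spike-in probes. The calculation was run on simulated data, made from the Dock8+/- array with set folds, a constant shift and small noise. Those data lacked probe disagreement and a shift that follows brightness, so the run checks the code only. Positions are those of the files, on mm9; exons of that build were not looked up here. The members, related lists and marker lists were chosen with earlier results of these data known. Named genes were all members and the SLC12, anoctamin and CLC genes, apart from some that are not reported here, of other related lists those at least 2-fold apart, and of comparison lists the extremes; others are marked where they occur. A member's value counted as moved by an alternative when it shifted by at least 0.0690.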

Additional observations from a re-analysis of the deposited data

How the results depend on the processing

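No paired analysis was possible because a genotype had a single array, and no replicate could be left out. The median of the 9 genes, -0.08, became -0.31 with scaling to the median, -1.93 with spike-in scaling and 0.23 with the mean of probes, and moved less than the spot SD under the other 9 alternatives, 4 of which left it as it was. The count of 0 genes at least 2-fold higher became 4 at 1.5-fold. The count of 1 at least 2-fold lower became 8 with spike-in scaling, 2 at 1.5-fold, 0 at 3-fold and 0 with the mean of probes. Of 49 measured related genes that are no members, 9 were at least 2-fold higher and 3 lower, where 9.08% and 7.02% of all genes were. The 9 became 0 with spike-in scaling, 16 at 1.5-fold and 4 at 3-fold. The 3 became 5 with scaling to the median, 39 with spike-in scaling, 7 at 1.5-fold, and 6 each without a filter on dim probes and with detection on at least 1 array. Over all genes, 1695 higher and 1310 lower became 3898 and 3148 at 1.5-fold, 488 and 424 at 3-fold, 5448 and 2760 without a filter, and 3411 and 2070 with the other detection flag. They became 1000 and 2125 with scaling to the median, 58 and 16303 with spike-in scaling, and 705 and 865 with normexp. Detection on at least 1 array gave 2580 lower, and naming by RefSeq accession 906 higher. Thresholds and filters change counts by construction. Spike-in scaling shifts all genes by -1.85 and scaling to the median by -0.23. With the mean of probes, Slc12a7 went from -1.57 to -0.42, which took it out of the count of lower genes. The cause of the other changes was not tested.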

Other observations

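Slc4a10, encoding a sodium-driven chloride-bicarbonate exchanger of neurons, read 737 in Dock8+/- and 74.1 in Dock8-/-, 4.76-fold lower after scaling. The 2 of its 3 probes well above background on both arrays gave -2.25 and -1.38. Slc26a2, a sulphate transporter gene of cartilage, differed by -1.49, from 1237 to 211, on the 1 of its 3 probes read on both arrays. Fibroblast markers were lower beside it, with a median of -2.62, and their part was not tested. Slc4a1, the anion exchanger of red blood cells, read 124 on the Dock8+/- array and was not well above background on the other, at least 3.11-fold lower. Slc26a1 differed by 2.06 from dim values of 44.1 and 87.7. The list of bicarbonate and other anion exchangers had a median of -0.15 over 12 measured genes. Of these, 1 was past the 2-fold size upward and 2 downward, where 9.08% and 7.02% of all genes were.

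Best1, encoding a calcium-activated anion channel, read 212 and 32.2 and was 3.15-fold lower in Dock8-/-. Ttyh2, a Tweety family gene, was brighter on the Dock8-/- array without any scaling, at 1175 against 961, and its probes gave 1.35 and 2.27. Cftr was not well above background in either genotype. These are values of 2 arrays, with no replicate check.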
